A study of Mus musculus with 26 samples.

Results

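Accessible regions called after knockdown of the DRR enhancer RNA, and not in the controls, were followed in C2C12 myotubes. The peaks of 6 ATAC-seq lists were merged wherever they shared at least 1 bp, on chromosomes 1 to 19 and X, which gave 231567 regions. Regions were chosen by their ATAC peak calls: a region was kept when both siDRR lists called it, neither control list called it and at most 1 siSmc3 list called it. This left 2160 gained regions, or 0.933% of all merged regions. Because of this choice the number of regions, their ranks, their absence from the controls and their siSmc3 calls describe the choice and are not findings. The mirror pattern, regions that both control lists and at least 1 siSmc3 list called and neither siDRR list called, held 1052 regions (0.454%).

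C2C12 is a mouse myoblast line whose cells leave the cell cycle and fuse into multinucleate myotubes when serum is lowered, here from 20% fetal bovine serum for myoblasts to 2% horse serum for myotubes. The ATAC libraries came from myotubes transfected with a control siRNA, with siDRR or with siSmc3, with 2 libraries each. SMC3 ChIP-seq was done in myoblasts, in myotubes and in myotubes with siDRR, and ChIRP-seq of the DRR RNA in myotubes with 2 separate probe pools, again with 2 libraries in each group. No transfection is named for the SMC3 libraries of plain myotubes. Replicates are not tied to cultures of their own, so differences between libraries, and p-values made from them, may be technical. All groups are 1 cell line, and the RNA left after either knockdown was not analysed here.

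In ATAC-seq a transposase inserts adapters where DNA is not wrapped in nucleosomes, so that peaks mark open promoters, enhancers and sites held open by bound factors. DRR is the distal regulatory region upstream of Myod1, the master regulator of the muscle lineage, and is transcribed into an enhancer RNA. Cohesin is a ring-shaped complex, with SMC3 as one of its core subunits, that extrudes and holds chromatin loops and often comes to rest at sites bound by CTCF. The series asked how the DRR RNA, cohesin and accessibility relate in muscle cells, and the gained regions are places where a peak was called after siDRR and not in the controls.

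The ATAC lists held 58138 and 99548 peaks in the controls, 69841 and 98592 with siDRR, and 80897 and 103056 with siSmc3. Replicate 2 gave the longer list in each group. The files hold peaks and a caller score but no read counts, so the sequencing depth is unknown and a peak missing from a list may have fallen just short of the threshold. Every ATAC list started at a score of 30.

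The gained regions were low-ranked in the lists that held them, and narrower than regions called in every list. Their median width was 636 bp (middle 50% from 532 to 806 bp, range 218 to 2685 bp), against 488 bp over all merged regions and 1511 bp for the 22555 regions called in all 6 lists. Peaks were ranked by score within each list and the rank was expressed as a percentile, where 100 is the top of the list; the highest peak of a region stands for it. In siDRR list 1 the gained regions ran from 0.0430 to 81.5 with a median of 36.3, and in list 2 from 0.0847 to 83.9 with a median of 32.9. Regions called in all 6 lists had medians of 82.9 and 87.8 in the same lists. In deposited scores the medians of the gained regions were 38.3 and 45.0, close to the lowest score kept. Of the 2160, 1266 were in the lower part of both lists (percentile 50 or below), 155 were above 50 in both and 1 was above 75 in both.

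**Figure D1:**
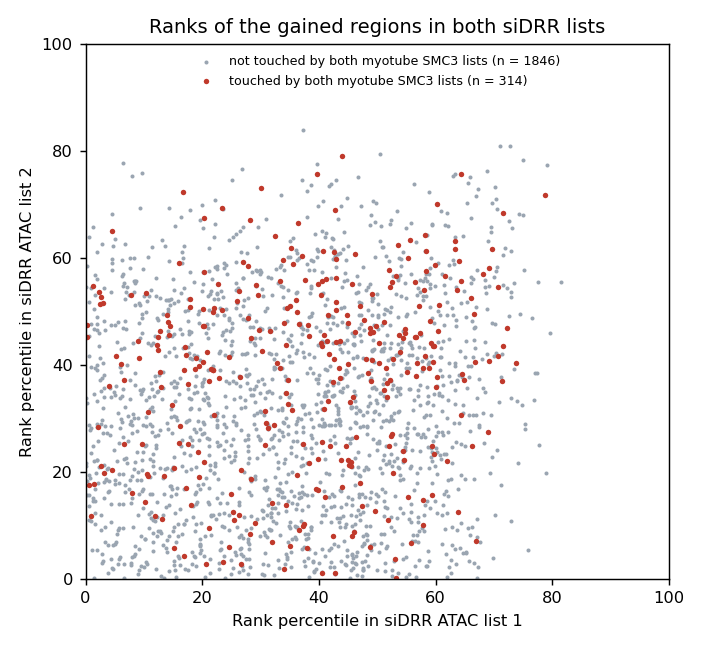
Each point is 1 gained region, with its rank percentile in siDRR ATAC list 1 on the horizontal axis and in list 2 on the vertical axis. Points in red are the 314 regions touched by a peak of both myotube SMC3 lists. The points fill the lower ranks of both lists with little relation between them (Pearson r = 0.12).

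The rule asked for a call in both siDRR lists. The siDRR peaks of a region therefore had to overlap or be joined by an siSmc3 peak. Their overlap and midpoint distance describe this choice, and their ranks were only loosely related. The siDRR peaks overlapped by at least 50% of the wider peak in 1607 regions (74.4%), and their midpoints lay a median of 90.2 bp apart in the 2140 regions where they overlapped. In 20 regions the 2 siDRR peaks did not overlap each other and were joined by an siSmc3 peak. Across the 2160 regions the percentiles in lists 1 and 2 had a Pearson r of 0.12 (Spearman rho 0.12), against 0.67 (0.81) over the 22555 regions called in all 6 lists. These are correlations across regions of the same 2 libraries, over a range of ranks that the rule itself narrowed, and are given as a description.

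The best-ranked gained region was chr17:13132844-13134053, in coordinates of mouse build mm9. Its siDRR peaks lay at 13132844 to 13133980 (score 113.72, percentile 79.1) and 13132993 to 13134053 (score 208.95, percentile 77.4). The nearest control peak was 2254 bp away, and siSmc3 list 2 called the region at percentile 68.4. It was the 1 gained region above percentile 75 in both siDRR lists.

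Next came chr11:62482766-62483746, at percentiles of 72.7 and 80.9 in siDRR lists 1 and 2, and chr2:50705335-50706262, at 74.9 and 78.3. The region chr13:113044102-113044818 stood at 71.1 and 81.0, and chr5:52456107-52456745 at 78.8 and 71.8. All 4 were at least 4737 bp from the nearest control peak. The chr2 region was called in no siSmc3 list, whereas the chr11 region reached percentile 81.0 in siSmc3 list 2, as high as in siDRR list 2.

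Mean percentiles over both siDRR lists then fell slowly from 72.5 to 70.0. In that order the regions were chr19:5749317-5750109, chr11:45979304-45980360, chr4:84075087-84075885, chr3:144424066-144424798 and chr3:51769332-51770272. They were followed by chr6:83428245-83429300, chr11:83656938-83657631, chr9:22429256-22430016, chr7:98690869-98691850 and chr17:42740173-42740672. None of the 15 had a control peak within 1 kb; the closest was at 1180 bp, beside the chr19 region. Of the 15, siSmc3 list 2 called 13 and neither siSmc3 list called the other 2; the rule allows a call in no more than 1 of these lists.

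The threshold lay inside a continuum. The 3 lowest gained regions, chr5:66528427-66528935, chr18:25403060-25403492 and chr6:90608132-90608772, had mean percentiles of 2.84, 2.495 and 0.837, with scores from 30.04 to 30.69. On the other side, 5192 regions met every condition except that control list 2 alone called them, and 276 were called by control list 1 alone. The best-ranked of those just outside was chr13:110271525-110272380, at siDRR percentiles of 94.5 and 93.1 and at 72.7 in control list 2. It was followed by chr3:20180389-20181439 (88.2 and 89.8, control 81.5) and chr14:106083161-106084171 (85.0 and 92.9, control 88.9). The count of regions depended on each list: without control replicate 2 the rule gave 7378 regions, and without control replicate 1 it gave 2434. Without siDRR replicate 1 the count was 30046, without siDRR replicate 2 it was 27089, and without siSmc3 replicate 1 it was 1239 (2015 without siSmc3 replicate 2).

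Control peaks lay within 1 kb of a minority of the gained regions. The nearest one lay a median of 3978.5 bp away (middle 50% from 1488.5 to 8720 bp). A control peak lay within 1 kb of 385 gained regions (17.8%) and within 500 bp of 221. Regions gained only under siSmc3 had a control peak within 1 kb at a like share, 17.3% of 3343, and those gained in both knockdowns at 22.6% of 297. Over all merged regions the share was 55.9%. These include regions that a control list called, so they are not a like comparison. The widest gained region, chr8:95022342-95025026, spanned 2685 bp because of 1 broad peak in siDRR list 1 (95022417 to 95025026), while list 2 called only 95024016 to 95024401 inside it.

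About as many gained regions had a siSmc3 call as had none. Neither siSmc3 list called 1071 of them (49.6%), list 2 alone called 923 (42.7%) and list 1 alone called 166 (7.69%). The regions shared with siSmc3 list 2 ranked higher under siDRR, with median percentiles of 40.7 and 42.3, than the regions absent from both siSmc3 lists, with 32.9 and 26.7. Their own median percentile in siSmc3 list 2 was 42.4. Another 297 regions were called in both siDRR and both siSmc3 lists and in neither control. Together with the gained regions they made up 2457 regions gained under siDRR whatever the state under siSmc3, 1.06% of all merged regions.

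Cohesin marked a minority of the gained regions, more than of ATAC regions at large. The SMC3 lists had no part in the rule. Of the 2160 gained regions, 319 (14.8%, exact 95% binomial interval 13.3% to 16.3%) overlapped an SMC3 region called in both myotube libraries. The share was 5.31% of all merged regions, 4.66% of the 1052 lost only under siDRR, 7.96% of the 3343 gained only under siSmc3 and 18.9% (14.6% to 23.8%) of the 297 gained in both knockdowns. Regions called in all 6 ATAC lists stood at 9.84%. A merged region needs a call in 1 list, whereas a gained region needs calls in both siDRR lists, so these sets differ in replication. Regions of the same siDRR and siSmc3 conditions that 1 control list called stood at 14.6% (list 2) and 15.6% (list 1). Regions gained only under siSmc3 were in both siSmc3 lists, in neither control list and in at most 1 siDRR list. The excess was not kept in full when 1 siDRR list was left out. The rule then asks for a call in 1 siDRR list in place of both. That gave 30046 regions without replicate 1 and 27089 without replicate 2. An effect of the left-out library cannot be told apart from that of the looser rule. Without siDRR replicate 1 the share was 7.13%, above the 5.79% of all merged regions and the 4.89% of those lost only under siDRR, and below the 8.83% of those gained only under siSmc3. Without siDRR replicate 2 it was 2.37%, below all 3 sets recomputed there (5.41% of all merged regions, 8.84% of those lost only under siDRR and 8.69% of those gained only under siSmc3). Regions are not replicates, so no test was made between these sets, and the intervals cover counting error only.

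Single SMC3 libraries gave the following shares. SMC3 peaks touched 22.3% and 22.4% of the gained regions in the 2 myoblast libraries, 15% and 18.8% in the myotube libraries, and 8.66% and 17.3% in the siDRR libraries. Over all merged regions the shares in the same libraries were 10.5% and 12.5%, 5.58% and 10.1%, and 3.11% and 8.76%. The gained regions were above all merged regions, above those lost only under siDRR and above those gained only under siSmc3 in 6 of 6 libraries, and below those gained in both knockdowns in 6 of 6. Against the regions of all 6 ATAC lists they were higher in 2 libraries, replicate 1 of the myotubes (15% against 10.4%) and replicate 1 of siDRR (8.66% against 5.66%), and lower in the other 4.

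**Figure D2:**
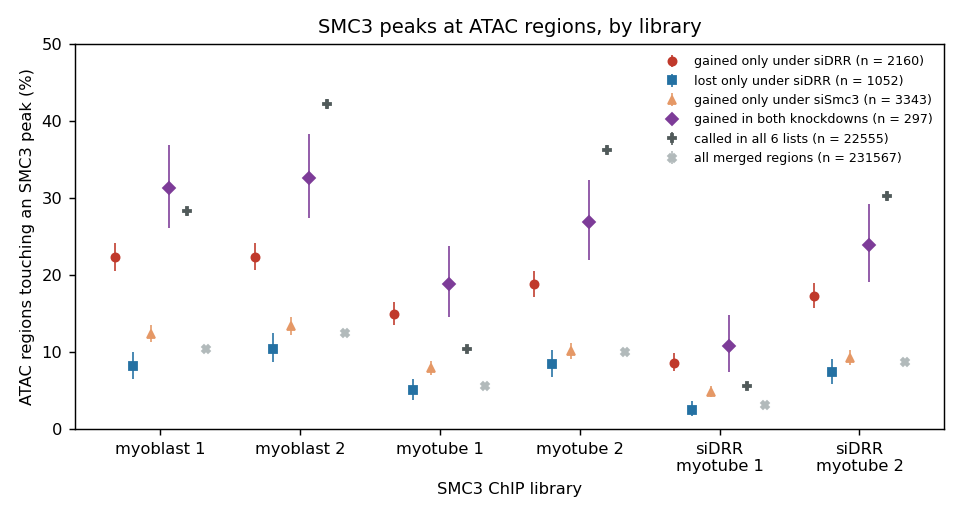
For each of the 6 SMC3 ChIP libraries (horizontal axis) the percent of ATAC regions touching one of its peaks is shown for 6 sets of regions, with exact 95% binomial intervals. The regions gained only under siDRR (red circles) lie above those lost only under siDRR, those gained only under siSmc3 and all merged regions in every library.

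The order against all merged regions and against regions gained only under siSmc3 was seen within each of 5 width classes. Among regions under 400 bp, 16.7% of 84 gained regions overlapped an SMC3 region of both myotube libraries, against 2.204% of all merged regions and 7.81% of those gained only under siSmc3. From 400 to 600 bp the shares were 16.9% of 815, 5.14% and 7.67%, and from 600 to 800 bp 13.96% of 702, 7.78% and 7.82%. The sets were closest from 800 to 1000 bp, where 9.69% of 320 gained regions (exact 95% interval 6.68% to 13.5%) stood beside 7.65% and 8.04%. From 1000 bp up they were 15.9% of 239, 9.004% and 8.95%. Regions of all 6 ATAC lists stood at 25.4% from 400 to 600 bp (59 regions) and 17.2% from 600 to 800 bp, above the gained regions, at 9.43% from 800 to 1000 bp, close to them, and at 9.51% from 1000 bp up, below them.

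Regions that a control list did call overlapped cohesin at like shares. Among regions that met the same siDRR and siSmc3 conditions, the share was 14.6% where control list 2 alone called the region, 15.6% where control list 1 alone did and 11.6% of the 5360 that both control lists called. The first 2 values lay inside the counting interval of the gained regions (13.3% to 16.3%) and the last below it. The share rose with rank among the gained regions, from 10.6% in the lowest quartile of mean percentile to 12.96%, 15% and 20.6% in the highest, with 540 regions in each. Regions that siSmc3 list 2 also called carried SMC3 in 20.2% of cases, those called in no siSmc3 list in 10.8% and those of siSmc3 list 1 in 10.2%.

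**Figure D3:**
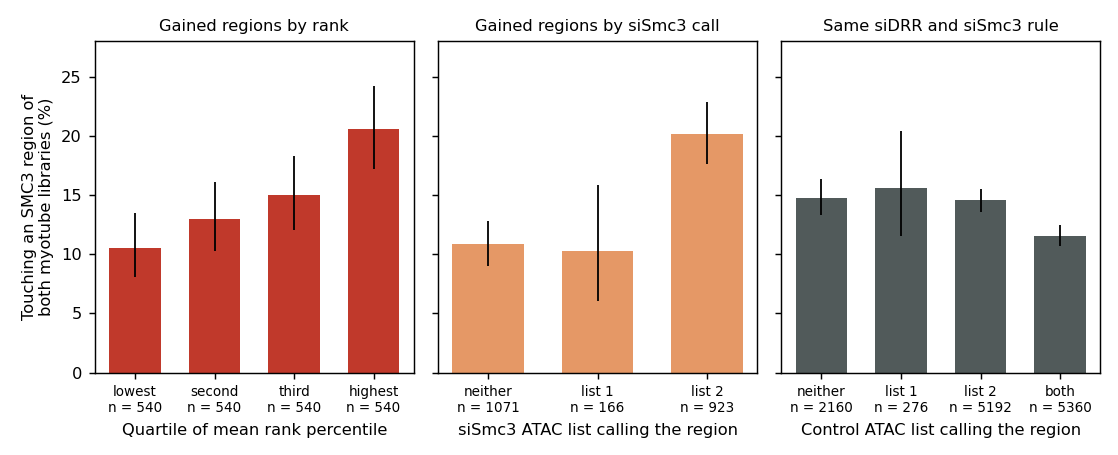
Bars give the percent of regions overlapping an SMC3 region of both myotube libraries, with exact 95% binomial intervals. The gained regions are split by quartile of rank (left) and by siSmc3 call (middle); the right panel sets them (neither) beside regions of the same siDRR and siSmc3 rule that 1 or both control lists called. The share climbs from 10.6% to 20.6% over the quartiles and is 14.6% to 15.6% where 1 control list called the region.

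SMC3 sites in myotubes were mostly called in myoblasts as well, at gained regions (306 of the 314 touched in both myotube libraries were touched in both myoblast libraries) and over all merged regions (11104 of 11843). Of the 433 gained regions touched in both myoblast libraries, 44 (10.2%) were touched in neither myotube library, against 19.1% of 20757 such regions over the whole ATAC set. Of the 1628 gained regions without a myoblast peak, 1 (0.0614%) was touched in both myotube libraries, against 0.148% of all merged regions without one. In 174 gained regions (8.06%) all 6 SMC3 lists had a peak, and in 1614 (74.7%) none had. The same shares over all merged regions are not given here, so these counts are a description only.

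Under siDRR the same sites were mostly called again. A peak of each myotube library touched 314 gained regions, and 175 of these (55.7%) were touched in both siDRR SMC3 libraries, 125 in 1 and 14 (4.46%) in neither. Over all ATAC regions with SMC3 in both myotube libraries the shares were 52.3% and 5.94% of 11843. Conversely, 0 of the 1743 gained regions without a myotube SMC3 peak had one in both siDRR libraries, which allows a share of up to 0.172%; the share over all ATAC regions was 0.0164%. In 14 of the 1743 (0.803%) 1 siDRR library had a peak, against 1.35% of such regions over the whole ATAC set.

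The share of gained regions touching an SMC3 peak was 16.9% ± 2.72 in myotubes and 12.99% ± 6.12 with siDRR (SD, n = 2 each), a difference of 3.94 percentage points. This was smaller than the SD of the siDRR libraries (p = 0.667, two-sided exact permutation test, in which 2 against 2 libraries cannot go below 0.333). Divided by the share over all merged regions in the same library, the values were 2.69 and 1.87 in myotubes and 2.78 and 1.98 with siDRR. On this scale the difference changed sign (-0.10, p = 0.667 in the same exact permutation test, from means of 2.28 ± 0.582 and 2.38 ± 0.569, SD, n = 2). Without siDRR SMC3 replicate 1, the shortest of these lists with 8384 peaks, the difference in shares was -0.39 points. Without siDRR SMC3 replicate 2 it was 8.26 points. Each setting leaves 1 siDRR library, so only the difference is given. In myoblasts the share was 22.3% ± 0.0327 (SD, n = 2).

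SMC3 peaks at gained regions ranked at or above the middle of their own lists. Their median percentiles were 67.3 and 67.9 in the myoblast lists, 54.6 and 64.5 in the myotube lists, and 53.4 and 63.6 with siDRR. Over all merged regions the same medians were 54.9 and 54.0, 53.1 and 52.9, and 52.0 and 52.8, so that replicate 1 of the myotubes and of siDRR differed little from them. At the regions of all 6 ATAC lists the medians were 37.8 and 43.2, 46.9 and 39.7, and 48.9 and 39.5. The gained regions were higher in 6 of 6 libraries in both comparisons, in 3 of 6 against regions gained only under siSmc3 and in 4 of 6 against those gained in both knockdowns.

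Midpoints of ATAC and SMC3 regions lay near each other, at gained regions as over all merged regions. For the 319 gained regions on SMC3 regions of both myotube libraries, the midpoints lay a median of 84 bp apart, and 182 (57.1%) were within 100 bp. Over all merged regions on such SMC3 regions the values were 104 bp and 48.98%, for those lost only under siDRR 93 bp and 51.0%, and for those gained in both knockdowns 67.5 bp and 66.1%. For regions of all 6 ATAC lists the median was 179 bp and 32.3% were within 100 bp, with the wider regions there moving the midpoints as well. Regions gained only under siSmc3 stood at 95 bp and 51.5%.

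**Figure D4:**
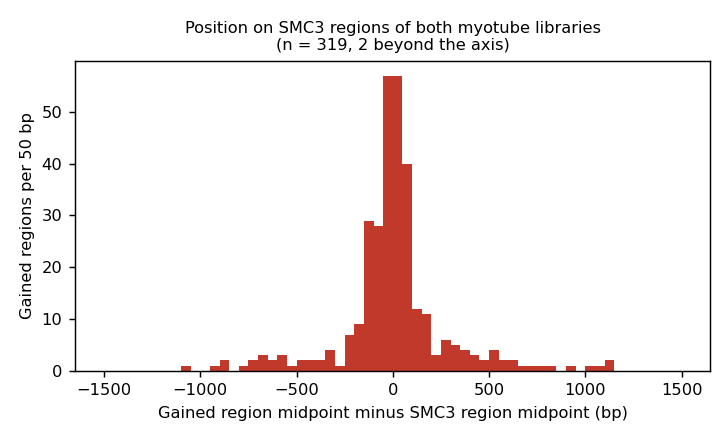
The histogram counts gained regions per 50 bp of distance between their midpoint and the midpoint of the SMC3 region of both myotube libraries that they overlap. Of 319 regions, 182 lie within 100 bp of 0.

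The best-ranked gained regions on cohesin sites show this at single sites. At chr5:52456107-52456745 the SMC3 peaks ran from 52455920 to 52456872 and 52455980 to 52456953 in the myotube libraries, and from 52456124 to 52456974 and 52455989 to 52456958 with siDRR. Their percentiles were 83.1 and 81.3 in myoblasts, 24.3 and 54.1 in myotubes and 57.9 and 45.8 with siDRR. The siDRR peaks of ATAC and SMC3 covered the same site, and the nearest control ATAC peak was 6607 bp away.

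At chr9:22429256-22430016 SMC3 stood at 80.1 and 72.6 in myoblasts, 37.9 and 70.3 in myotubes and 15.9 and 77.0 with siDRR. At chr17:42740173-42740672 the values were 87.4 and 71.5, 34.9 and 59.8, and 80.2 and 41.0. At both sites the replicates of a group lay far apart, and the myotube and siDRR ranges overlapped. The 5 best-ranked gained regions on SMC3 regions of both myotube libraries also held chr4:136396808-136397603, with SMC3 percentiles of 98.8 and 96.7 in myoblasts, 89.8 and 94.9 in myotubes and 87.1 and 93.9 with siDRR. Its ATAC peaks stood at 69.7 and 61.7 in the siDRR lists. The other, chr18:13463725-13464386, had SMC3 at 95.3 and 87.6, 48.0 and 49.2, and 48.1 and 74.5. Each of the 5 carried an SMC3 peak in all 6 libraries.

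Most of the best-ranked gained regions had no SMC3 peak, as did most gained regions (1614, or 74.7%) and most ATAC regions at large. No myoblast or myotube SMC3 peak touched 1617 of the 2160 gained regions and 195100 of the 231567 merged regions. Of the 15 named by rank, 11 had no SMC3 peak in any library, 3 lay on SMC3 regions of both myotube libraries, and the chr19 region had a peak in myoblast library 1 alone (percentile 18.98). The top region on chromosome 17 lay 54805 bp from the nearest SMC3 region of both myotube libraries. Over all gained regions that distance had a median of 28653.5 bp, against 43718 bp over all merged regions and 39004.5 bp for those lost only under siDRR. It was 31924 bp for regions gained only under siSmc3, 27487 bp for those of all 6 ATAC lists and 25132 bp for those gained in both knockdowns. Regions that overlap an SMC3 region enter these medians with no distance, so the medians partly restate the overlap shares.

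The DRR RNA itself was seldom mapped to the gained regions, as to ATAC regions at large. ChIRP recovers chromatin bound by an RNA with probes against that RNA. Its peaks, deposited as single positions and widened by 250 bp on each side, touched 8 (0.370%) and 53 (2.45%) of them in the libraries of probe pool 1, and 36 (1.67%) and 29 (1.34%) in those of pool 2. Over all merged regions the shares were 0.206% and 3.02%, and 1.71% and 1.31%. A widened position of any ChIRP library touched 92 gained regions (4.26%), against 5.05% of all merged regions. Regions called in all 6 ATAC lists were touched more often in each library, at 0.541% and 6.40% for pool 1 and 4.66% and 2.97% for pool 2. They were also wider (median 1511 bp against 636 bp), which gives more room for an overlap, and the comparison was not matched for width.

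Only 2 gained regions (0.0926%, exact 95% interval 0.0112% to 0.334%) met a ChIRP region found with both probe pools. Sites found with both pools are less open to binding by a probe alone. The share over all merged regions was 0.0976%. At chr11:117704685-117705421 all 4 ChIRP libraries had a peak, at percentiles of 36.2 and 59.0 in pool 1 and 97.4 and 65.7 in pool 2, and the ATAC peaks were weak (8.54 and 38.4). At chr15:97207112-97207613 only replicate 2 of pool 1 touched the region itself (percentile 44.0), and the pool 2 peak lay outside it in the same joined ChIRP region. Neither carried an SMC3 region of both myotube libraries.

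The gained regions were spread over all chromosomes. Chromosome 2 held the most, 181 (8.38%, against 7.58% of all merged regions). The X chromosome held 28 (1.30%, against 2.85%), 0.455 times its share of all merged regions and the lowest ratio of any chromosome. Regions lost only under siDRR had 2.57% on X, those gained only under siSmc3 1.73% and those gained in both knockdowns 1.68%. Chromosome 15 had the highest ratio, 1.26, with 161 regions (7.45% against 5.90%). It was not seen with lists of equal length (5.84%, ratio 1.01) and was below 1 with the better-scoring 50% of each list (4.66%, ratio 0.854), while the X share was 1.37% and 1.75% in these settings (ratios 0.488 and 0.691). Without siDRR replicate 1 the X share was 2.29% (ratio 0.844), and without siDRR replicate 2 it was 3.73%, above its share of all regions (ratio 1.29). Each of these settings leaves the rule with 1 siDRR list and a larger set.

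**Figure D5:**
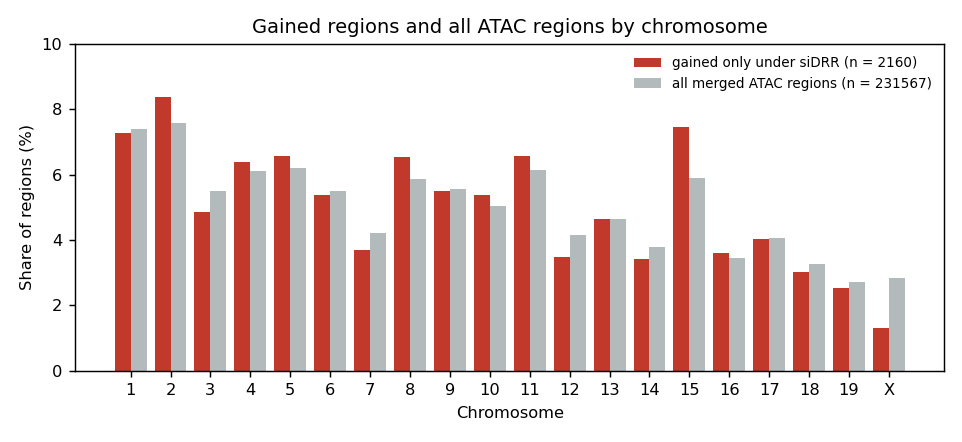
Bars give the percent of the 2160 gained regions (red) and of all 231567 merged ATAC regions (grey) on each chromosome. The pairs are close on most chromosomes and differ most on X (1.30% against 2.85%) and on chromosome 15 (7.45% against 5.90%).

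The spacing of gained regions depends on their number, which the rule set. The nearest other one lay a median of 231797 bp away, 79 (3.66%) had another within 10 kb and 603 (27.9%) within 100 kb. The densest 1 Mb windows held 8 each, at chr8:93691169-94637992, chr14:121903828-122850687 and chr15:58410396-59370546, out of 210, 186 and 194 merged regions there. A region called in all 6 lists lay within 10 kb of 25% of the gained regions, at a median distance of 24086.5 bp. Over all merged regions the values were 27.99% and 26978 bp. These include the 22555 regions of all 6 lists themselves, each at a distance of 0, so they are not a like comparison. Within 10 kb were 28.5% of the regions lost only under siDRR and 25.3% of those gained only under siSmc3. The medians were 25102.5 bp for regions lost only under siDRR and 23421 bp for those gained only under siSmc3, with no test between the sets.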

How the data were processed

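The 16 deposited peak lists, 1 each for 16 of the 26 samples, were used. Inputs and LacZ probe controls were not analysed here. Each list has 5 columns, and the last is a score that the authors' peak caller gave each peak; its scale is not stated, so scores were compared within a list and never between lists. Per the submitters' processing notes, build mm9 and the peak callers MACS 1.4.2 and MACS2, the aligners Bowtie2 2.2.4 and Bowtie 1.1.1, the trimmer cutadapt 1.12 and the converters bcl2fastq 2.17.1 and CASAVA 1.8.2 were used. Which tool served which assay, the calling threshold and any shift of ATAC reads are not given in what was used here. Each list belongs to 1 library, per the labels.

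Starts were made 1-based, and peaks outside chromosomes 1 to 19 and X were left out (1 per ATAC list, mitochondrial, and 11 to 646 per ChIRP list). Merging, overlap and distance were computed with numpy 2.4.6 and pandas 2.3.3 in Python 3.11.15, and tested on simulated data. Exact (Clopper-Pearson) 95% binomial intervals cover counting of regions only; read depth is unknown. SMC3 shares of myotube and siDRR libraries were compared by an exact permutation test over 2 against 2 libraries. Alternatives changed the merging, the score limit, the list length, the siSmc3 and control conditions and the libraries. No pair of ATAC lists was a repeat deposit: identical intervals made up at most 0.00507% of the shorter list. The gained regions and the comparison sets were chosen with earlier results of these data known. Named regions are the 15 best by mean rank percentile, the 5 best on SMC3 regions of both myotube libraries, those on ChIRP regions of both pools (up to 5), the widest, and 3 on each side of the threshold. No genome or annotation of build mm9 was used here, so regions carry coordinates without gene names or sequence.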

Additional observations from a re-analysis of the deposited data

How the results depend on the processing

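The number of gained regions, 2160, was 1029 with the better-scoring 50% of each ATAC list, 1071 with regions of no siSmc3 list, and 1239 to 30046 when 1 ATAC library was left out. Of the 2160 regions, 154 (7.13%) were still touched by a gained region with the better-scoring 50% and 641 (29.7%) with lists of equal length (58137 peaks), although all 15 best-ranked ones were. All 15 were also kept in the other settings, except with no siSmc3 list allowed and without siSmc3 replicate 1, where 2 stayed. The 15 were picked by high siDRR rank and had no control peak within 1 kb, so most of these settings could not drop them. Their being kept is not a sign of stability. Leaving out a siDRR replicate leaves the rule with 1 list; the larger counts follow from that construction.

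With peaks up to 100 bp apart merged, the median width was 653 bp and 14.9% had a control peak within 1 kb. With 500 bp around each midpoint that share was 20.2%, and with no control peak allowed within 500 bp it was 8.46%. With the better-scoring 50% the width was 770 bp, the rank percentile 25.2 (33.7 otherwise), the control share 9.91%, the distance to regions of all lists 28842 bp and the SMC3 share 19.3%. With equal length they were 701 bp, 29.8 and 12.9%, the SMC3 share was 20.3%, and the ChIRP share of both pools was 0% of 1609 (a count of 0 allows up to 0.186%). With no siSmc3 list the width was 586 bp, the percentile 29.7 and the SMC3 share 10.8%. Leaving out 1 ATAC library gave widths of 404 to 715 bp, percentiles of 21.4 to 45.5, control shares of 8.78% to 18.8%, distances of 20770.5 to 46496 bp and SMC3 shares of 2.37% to 14.95%. The SMC3 share was 7.78% with the better-scoring 50% of each SMC3 list, 6.85% with SMC3 lists of equal length, and 15% or 18.8% with 1 myotube SMC3 library.

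The SMC3 share of gained regions minus that of regions lost only under siDRR was 10.1 points, and 14.5 with the better-scoring 50%, 15.7 with equal length and 5.57 with no siSmc3 list. Minus regions gained only under siSmc3 it was 6.81, 9.02 and 11.0 with the first 2 of these. Over the left-out ATAC libraries these differences ran from -6.47 to 11.5 and from -6.32 to 13.8. They were reversed without siDRR replicate 2 (-6.47 and -6.32, and -3.04 against all merged regions) and, against siSmc3, without siDRR replicate 1 (-1.70). Each of these settings leaves the rule with 1 siDRR list. Minus all merged regions the left-out libraries gave -3.04 to 9.37. These comparisons were added after the data had been seen.

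The difference between myotube and siDRR SMC3 libraries, 3.94 points, turned to -0.0231 with SMC3 lists of equal length, to -0.394 without siDRR SMC3 replicate 1 and to -0.10 when divided by the share over all regions; without 1 library of either assay it ran from -0.394 to 8.26. With the replicate number as a block it was 3.94 (p = 0.5, exact sign-flip permutation test). The myotube share was the higher in each block (15% against 8.66%, and 18.8% against 17.3%). With so few blocks this p is the lowest the test can give, so the test cannot decide whether the groups differ. The labels do not say that the number pairs cultures. Alternatives for gene starts and motifs were not run, since they need a genome of build mm9.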
